A study of Mus musculus with 16 samples.

Results

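The response to the iron chelator dipyridyl (DP) was measured in mouse embryonic fibroblasts whose remaining alleles of the coactivators CBP and p300 all lack the CH1 domain. The comparison takes 4 of the 16 arrays of the study: a vehicle array and a DP array of each of the lines triCH1flox1 and triCH1flox2, paired by line. In triCH1flox1 both p300 alleles and 1 CBP allele carried a CH1 deletion and the other CBP allele was conditional (CBP CH1/flox;p300 CH1/CH1). In triCH1flox2 both CBP alleles and 1 p300 allele carried the deletion and the other p300 allele was conditional (CBP CH1/CH1;p300 CH1/flox). All 4 lines of the study were primary fibroblasts of e14.5 embryos that received Cre adenovirus at passage 3 and were then expanded at least 100 fold. Cre deletes the conditional allele, so per the labels no allele with a CH1 domain was left in the triCH1 lines. Vehicle cells received ethanol at both additions, 30 min apart. DP cells received ethanol and then 100 µM DP, and RNA was taken 3 h later under normal oxygen. Control lines were flox1 (CBP +/flox) and flox2 (p300 +/flox), which kept intact CH1 domains and lost 1 coactivator allele to the same virus. The triCH1 lines were also treated with trichostatin A (TSA, 100 ng/ml), an inhibitor of histone deacetylases, with DP or ethanol as the later addition. Each line stands for 1 genotype and there were no replicate cultures, so n = 2 lines in every comparison. P-values set a change against a spread estimated over all 16 arrays, so they do not measure only how alike those lines changed.

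The hypoxia-inducible factor HIF is a transcription factor whose alpha subunit is hydroxylated by iron- and oxygen-dependent enzymes and then destroyed. Chelation of iron stops the hydroxylation, HIF accumulates, and genes of glucose uptake, glycolysis, angiogenesis and cell survival are switched on. HIF binds DNA at short elements with the core ACGTG or GCGTG, and its alpha subunit contacts the CH1 domain of CBP and p300, which are histone acetyltransferases. A factor hydroxylase acts on the same contact in normal oxygen. Iron chelators also touch other metal-dependent processes, among them the iron-responsive control of transferrin receptor mRNA and the metal-responsive control of metallothioneins.

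The promoter sequences of some genes that rose with DP are shown first, because these genes carry the results below and their upstream regions hold the core letters that HIF or the metal-responsive factor is known to bind. Each is the stretch of 250 bases before the start of the gene in RefSeq (GRCm38.p6), printed 5′ to 3′ on the strand of the gene. In the first 5 promoters, capitals mark matches to ACGTG or GCGTG on either strand (on the opposite strand these read CACGT and CACGC, and neighbouring matches may overlap). In the promoter of Mt2, a metallothionein gene, capitals mark matches to the core of the metal-responsive element, searched as TGCACNC or TGCGCNC on both strands, where N is any base.
Bnip3 (chr7:138909507-138909756, minus strand): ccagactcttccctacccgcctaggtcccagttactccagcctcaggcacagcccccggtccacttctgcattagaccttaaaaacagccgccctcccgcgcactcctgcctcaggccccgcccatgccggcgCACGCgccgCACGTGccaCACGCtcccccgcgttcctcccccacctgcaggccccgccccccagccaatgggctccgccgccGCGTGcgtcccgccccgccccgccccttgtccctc
Ankrd37 (chr8:45999851-46000100, minus strand): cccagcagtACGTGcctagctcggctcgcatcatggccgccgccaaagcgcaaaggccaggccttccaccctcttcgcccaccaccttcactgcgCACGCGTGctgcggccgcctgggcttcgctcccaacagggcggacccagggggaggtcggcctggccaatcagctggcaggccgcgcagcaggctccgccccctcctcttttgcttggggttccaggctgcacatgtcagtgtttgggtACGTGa
Slc2a1 (chr4:119108495-119108744, plus strand): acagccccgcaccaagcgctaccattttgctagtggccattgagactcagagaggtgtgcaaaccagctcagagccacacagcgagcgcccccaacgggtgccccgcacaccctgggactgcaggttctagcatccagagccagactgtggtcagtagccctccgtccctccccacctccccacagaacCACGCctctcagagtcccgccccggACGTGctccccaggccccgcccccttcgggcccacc
Ldha (chr7:46845554-46845803, plus strand): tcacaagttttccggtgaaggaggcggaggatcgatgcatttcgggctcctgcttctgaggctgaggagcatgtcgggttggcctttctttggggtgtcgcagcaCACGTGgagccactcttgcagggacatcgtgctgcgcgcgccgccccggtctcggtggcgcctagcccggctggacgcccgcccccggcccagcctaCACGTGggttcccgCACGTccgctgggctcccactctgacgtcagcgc
Ero1a (chr14:45318573-45318822, minus strand): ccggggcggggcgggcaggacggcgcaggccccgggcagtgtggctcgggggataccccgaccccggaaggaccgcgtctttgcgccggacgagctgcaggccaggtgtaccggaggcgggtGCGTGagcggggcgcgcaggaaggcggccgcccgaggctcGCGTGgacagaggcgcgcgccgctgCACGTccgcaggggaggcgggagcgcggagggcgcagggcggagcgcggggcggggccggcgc
Mt2 (chr8:94172368-94172617, plus strand): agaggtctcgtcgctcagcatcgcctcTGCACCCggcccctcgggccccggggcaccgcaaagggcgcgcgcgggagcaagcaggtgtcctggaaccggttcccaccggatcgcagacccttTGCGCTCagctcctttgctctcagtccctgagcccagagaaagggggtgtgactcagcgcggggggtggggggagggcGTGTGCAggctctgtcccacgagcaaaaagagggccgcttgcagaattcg
The promoters of Bnip3 and Ldha held 5 matches each to the HIF core, Ankrd37 held 4, Ero1a 3 and Slc2a1 2, and Mt2 held 3 matches to the metal core. Only 1 motif is marked in each promoter, and the motifs do not separate these genes. Unmarked metal core matches were present in Ero1a (2) and in Ankrd37, Slc2a1 and Ldha (1 each), with 0 in Bnip3. Mt2 also held 1 match to the HIF core. A promoter was found for 54 of the 65 genes that rose, and 40 of these (74.1%) held at least 1 HIF core match, against 57.7% of the promoters of 9295 genes tested and 38.6% of all 27025 promoters of the table. At least 2 matches were present in 27 of the 54, against 28.5% of the genes tested and 16.8% of all promoters. ACGTG alone was found in 40.7% of the 54, in 22.2% of the genes tested and in 16.6% of all promoters. The metal core was found in 48.1% of the 54, 30.9% of the genes tested and 21.3% of all promoters. A match is a description of the letters in this window and not a binding site.

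The 4 arrays resembled each other in quality. Their median signals were 111.1 to 138.1, the share of probe sets at a signal of 200 or more was 37.2% to 40.1%, and the ratio of 3′ to 5′ signal was 0.935 to 1.167 for Gapdh and 1.368 to 1.401 for actin. On the other 12 arrays the Gapdh ratio ran up to 2.593, on the vehicle array of flox1. That array enters the triCH1 comparison only through the spread, which is estimated over all 16 arrays, and without it 78 genes rose in the triCH1 lines, the 65 reported here among them. The array of DP in triCH1flox1 belongs to another array series (a barcode series in the labels) than its vehicle array, whereas both arrays of triCH1flox2 belong to the same series. Crebbp, which encodes CBP, had vehicle signals of 1437 in triCH1flox1 and 2500 in triCH1flox2 and DP signals of 1554 and 1880, lower in the line with the conditional CBP allele. Ep300 had vehicle signals of 1319 and 941 and DP signals of 1945 and 771, lower in the line with the conditional p300 allele. Where these probe sets lie relative to the deletions is not given in the sources used here, which makes this a partial check of the labels. Of 15 fibroblast markers 14 reached 200 on all 4 arrays, with summed signals of 215224 to 224557 with vehicle and 225957 to 231625 with DP. All 6 endothelial and all 4 measured erythroid markers were under 200 on all 4 arrays, as were 4 of 7 macrophage, 3 of 6 epithelial, 3 of 6 muscle, 3 of 4 adipocyte, 4 of 6 neural and 1 of 5 cartilage markers.

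In cells without a CH1 domain DP raised 65 of 11481 genes (0.566%) and lowered 1 gene (0.00871%) at an adjusted p under 0.05 (limma, Benjamini-Hochberg). Genes of the hypoxia response led the list: Bnip3, Ak4, Ankrd37, Pfkfb3 and Pdk1 were the 5 largest rises, at 8.92, 8.33, 6.67, 6.39 and 5.64-fold. The order depends on the pseudocount: with 16 in place of 50, Rgcc, a weak gene in none of the hypoxia lists, had a larger change (3.02 on the log2 scale) than Pfkfb3 (2.92) and Pdk1 (2.63), and Smtnl2 (2.75) a larger one than Pdk1. The rises ran from 1.43-fold to 8.92-fold with a median of 2.46-fold, and 8 were at least 4-fold, 39 between 2 and 4-fold and 18 below 2-fold. Changes are differences of log2(signal + 50), so the fold of a weak gene is understated. Of the 65 genes, 38 belong to 7 lists of hypoxia genes, 8 to other lists only and 19 to no list. The 7 lists name 94 genes, 85 of which were tested. Of these 38 (44.7%) rose and 0 fell, and their median change was 0.73 on the log2 scale, against -0.02 over all genes tested. The lists were chosen with earlier results of these data known, which may favour genes that rose, so the share describes the lists and tests nothing. Without a filter on signal, 34 of 87 measured members rose, with a median of 0.67.

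All 65 genes rose in both lines, and both DP arrays lay above both vehicle arrays for each of them, a pattern that 12.5% of all genes tested also had. With 2 arrays against 2 and the pairing by line set aside, an exact permutation test on a single gene cannot give a two-sided p below 0.333. Keeping the pairing allows fewer arrangements still. The calls therefore depend on the spread pooled across genes and arrays. Without triCH1flox1, whose DP array is of the other series, 35 genes rose, 28 of them among the 65. Without triCH1flox2, 17 rose, all 17 among the 65. With the array series as a term in the fit 44 rose, 43 of them among the 65.

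**Figure D1:**
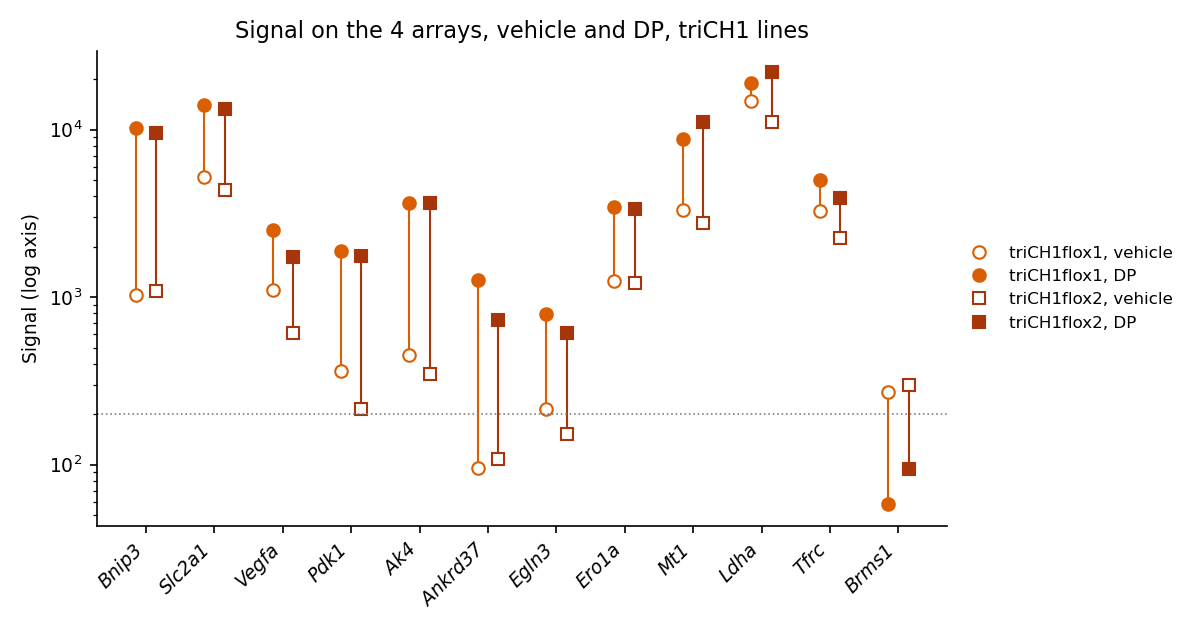
Signals (log axis) of 12 genes on the 4 arrays of the triCH1 lines. Open symbols are vehicle and filled symbols DP, circles are triCH1flox1 and squares triCH1flox2, a line joins the arrays of a line, and the dotted line marks a signal of 200. Bnip3 went from 1036 and 1093 to 10192 and 9598, Ldha rose by much less from a high level, and Brms1 is the gene that fell.

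Genes of glucose entry and of the step that commits glucose to glycolysis rose most among the metabolic genes, 4 of 7 tested, with a list median of 1.47 on the log2 scale. Slc2a1, the widely expressed glucose transporter, had vehicle signals of 5239 and 4343 in triCH1flox1 and triCH1flox2 and DP signals of 13990 and 13208. This is a rise of 2.83-fold (log2 SE 0.102, n = 2 lines, limma adjusted p = 2.54e-07), and the lines differed little. Slc2a3, a glucose transporter of high affinity, started low at 117 and 88.8 and reached 309 and 448 (2.78-fold, adjusted p = 0.00859). Hk2, the hexokinase that phosphorylates glucose at the mitochondrial surface, went from 1674 and 1289 to 5791 and 4820 (3.51-fold, SE 0.126, adjusted p = 2.79e-07). Pfkfb3, which makes the fructose bisphosphate that activates phosphofructokinase, went from 263 and 93.1 to 1147 and 1473. Its mean rise was 6.39-fold (adjusted p = 0.000208), larger in triCH1flox2 (3.41 on the log2 scale) than in triCH1flox1 (1.94). A further Pfkfb3 probe set gave -0.23 (unadjusted p = 0.742), so the probe sets of this gene disagree, and with their mean the rise did not pass (adjusted p = 0.462). The members that did not pass were Hk1 (0.63, adjusted p = 0.064), Pfkfb2 (0.10) and Pfkfb4 (-0.05).

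Among the glycolytic enzymes 5 of 11 tested rose, with a median of 0.56, and the abundant ones by less than 2-fold. Pfkl and Pfkp, subunits of phosphofructokinase, rose 2.59-fold and 2.10-fold (adjusted p = 0.00493 and 0.00277). With the mean of the probe sets the Pfkl rise did not pass (limma adjusted p = 0.104). Ldha, which turns pyruvate into lactate, had the highest signals of these genes, 14799 and 11069 with vehicle and 18952 and 21996 with DP, and rose 1.59-fold (adjusted p = 0.016). Pgk1 and Pgam1, enzymes of the lower pathway, rose 1.43-fold and 1.49-fold. For Pgk1 the lines were nearly equal, with 12747 and 13006 going to 18280 and 18518. Aldoc was 2.32-fold higher but weakly expressed and did not pass (adjusted p = 0.544), and Tpi1 (0.56, adjusted p = 0.137), Aldoa (0.36), Pkm (0.24), Pfkm (0.09) and Eno2 (-0.45) did not pass either.

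Glycogen synthesis and acid export added 4 of 9 tested genes. Ppp1r3b, which brings protein phosphatase to glycogen, went from 271 and 146 to 721 and 812 (3.26-fold, adjusted p = 0.00304). Gys1, glycogen synthase, rose 2.52-fold and Pgm1, phosphoglucomutase, 2.23-fold (adjusted p = 0.0433 and 0.00493). The Gys1 rise passed in 6 of 14 alternative analyses. It did not pass without the line as a block (limma adjusted p = 0.102) or with the mean of the probe sets (0.357). Slc16a3, the exporter of lactate, went from 928 and 367 to 1652 and 1962 (2.90-fold, adjusted p = 0.00493), by 0.80 on the log2 scale in triCH1flox1 and 2.27 in triCH1flox2. Ppp1r3c, another glycogen targeting subunit, was at 16.9 and 102 with vehicle and 81.4 and 251 with DP and did not pass, and neither did Gbe1 (0.73), Pgm2 (0.23), Car12 (-0.06) or Car9 (-0.12), the last 2 being carbonic anhydrases of the cell surface.

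Genes that limit mitochondrial respiration or remove mitochondria held the largest rises, 5 of 10 tested. Bnip3, a receptor for mitophagy, rose from 1036 and 1093 to 10192 and 9598, by 3.24 in triCH1flox1 and 3.08 in triCH1flox2 on the log2 scale (8.92-fold, SE 0.120, adjusted p = 8.37e-11). Ak4, the adenylate kinase of the mitochondrial matrix, rose from 452 and 346 to 3667 and 3651 (8.33-fold, SE 0.195, adjusted p = 1.5e-07). Pdk1, the kinase that closes pyruvate dehydrogenase, rose from 365 and 214 to 1889 and 1750 (5.64-fold, adjusted p = 6.07e-05). For all 3 genes the DP arrays lay at least 4 times above the vehicle arrays of the same line. Mxi1, an antagonist of Myc, rose 2.34-fold and Higd1a, an inner membrane protein, 1.92-fold (adjusted p = 0.0068 and 0.000204). Pdk3 (0.22), Fundc1 (0.20), Lonp1 (0.15), Pdk4 (-0.02) and Ndufa4l2 (-0.62) did not pass, and 0 of 26 subunits of the respiratory chain and ATP synthase passed, with a list median of -0.01.

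Enzymes that sense oxygen and modify collagen rose in 5 of 10 tested cases. Egln3, which hydroxylates HIF on proline and so targets it for decay, went from 214 and 152 to 797 and 609 (3.24-fold, SE 0.199, adjusted p = 0.000195). Egln1, the main HIF prolyl hydroxylase, rose 2.47-fold from 1472 and 1600 to 4374 and 3421 (adjusted p = 0.000142), and Vhl, which recognises hydroxylated HIF, rose 2.13-fold (adjusted p = 0.0111). A further Vhl probe set gave 0.67 (limma unadjusted p = 0.245), and with the mean of the probe sets the rise did not pass (limma adjusted p = 0.7). The Vhl rise passed in 9 of 14 alternative analyses. Plod2 and P4ha2, hydroxylases of collagen lysine and proline, rose 1.82-fold and 1.72-fold. Egln2 (-0.10) and the factor hydroxylase Hif1an (-0.05) stayed near 0, and P4ha1 (0.50, adjusted p = 0.139), Plod1 (0.38) and Lox (0.10) did not pass.

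The iron-dependent demethylases, which use the same chemistry as the HIF hydroxylases, rose in 2 of 18 cases. Kdm3a, a histone H3 lysine demethylase, went from 728 and 708 to 2118 and 1576 (2.45-fold, adjusted p = 0.0068). Jmjd6 went from 910 and 906 to 1912 and 1772 (1.97-fold, adjusted p = 0.0431). The Jmjd6 rise did not pass without the line as a block (limma adjusted p = 0.0635) or with quantile normalization (0.0649). The list median was 0.41 and 12 of the 18 were above 0 in both lines, against 20.8% of all genes tested. Kdm4b was 2.55-fold higher without passing (adjusted p = 0.376). Of 9 HIF subunits, partners and coactivators 0 rose and 0 fell, with a median of -0.15. Hif1a, the best expressed alpha subunit of the list, was at 7449 and 7335 with vehicle and 7386 and 6400 with DP, and Arnt (-0.20), Epas1 (-0.55), Hif3a (-1.09) and Cited2 (0.26), which competes for CH1, did not pass.

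Among genes of secreted and surface proteins 5 of 15 tested rose. Vegfa, the main growth factor of blood vessels, went from 1101 and 611 to 2517 and 1747 (2.46-fold, adjusted p = 0.00562). A further Vegfa probe set rose by 1.69 on the log2 scale (unadjusted p = 0.000933). Stc1 and Stc2, stanniocalcins, rose 4.38-fold and 2.41-fold (adjusted p = 0.0164 and 0.0298). Neither passed without the line as a block (limma adjusted p = 0.113 and 0.0797). The lines were unlike for Stc1, whose vehicle signals were 247 and 29.9 and whose DP signals were 632 and 615. Tnfsf9, a ligand of the tumour necrosis factor family, rose 3.47-fold and Adm, adrenomedullin, 1.59-fold. Tnfsf9 did not reach a signal of 200 on 8 arrays, so it was not tested under that stricter filter. Nampt was 1.99-fold higher without passing (adjusted p = 0.456), and Angptl4 (0.79), Tgfa (0.58), Flt1 (0.26), Mif (0.23), Ackr3 (0.22), Pgf (-0.03), Ereg (-0.05), Edn1 (-0.18) and Plaur (-0.27) did not pass.

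Hypoxia genes that act inside the cell rose in 10 of 23 tested cases, with a median of 0.92. Ankrd37, an ankyrin repeat protein, went from 95.6 and 109 to 1268 and 732 (6.67-fold, SE 0.367, adjusted p = 0.000701). Ier3, an early response gene linked to survival, rose 3.06-fold (SE 0.119, adjusted p = 5.63e-07) and Sap30, a subunit of a histone deacetylase complex, 2.77-fold. Ero1a, which oxidises disulfide bonds in the endoplasmic reticulum, went from 1243 and 1215 to 3455 and 3357, with the same rise in both lines (2.70-fold, SE 0.138, adjusted p = 2.01e-05). Hilpda, a lipid droplet protein, rose 2.67-fold, Ddit4, an inhibitor of the growth kinase mTOR, 2.63-fold, and Bhlhe40, a transcriptional repressor, 2.19-fold. Fam162a rose 2.19-fold from 4841 and 4331 to 10077 and 10082, Ndrg1 rose 2.11-fold from 460 and 389 to 986 and 911, and Pnrc1 rose 1.94-fold. Further Ndrg1 probe sets ran from 0.22 (limma unadjusted p = 0.645) to 1.56, and with the mean of the probe sets Ndrg1 did not pass (limma adjusted p = 0.084). Of the 13 other genes of the list, Zfp395 (1.08, adjusted p = 0.122), Maff (0.92, adjusted p = 0.14), Kbtbd11 (0.90), Rora (0.90) and Wsb1 (0.63, adjusted p = 0.122) were the highest without passing.

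The list of metal response genes held 2 rises among 8 tested. Mt1 and Mt2, metallothioneins that bind zinc and copper, went from 3328 and 2781 to 8851 and 11074 and from 1786 and 1413 to 3572 and 5591 (3.22-fold and 2.76-fold, adjusted p = 5.41e-05 and 0.00277). Both rose more in triCH1flox2. Slc30a1, a zinc exporter, was 1.42-fold higher without passing (adjusted p = 0.896), their regulator Mtf1 was at -0.12, and the third metallothionein measured, Mt3, was at -1.06 without passing. In the iron list 1 of 17 rose: Tfrc, the transferrin receptor, went from 3265 and 2272 to 5015 and 3916 (1.62-fold, adjusted p = 0.0112). A further Tfrc probe set gave 0.26 (unadjusted p = 0.53), and the rise did not pass with the mean of the probe sets (adjusted p = 0.862) or without the line as a block (0.25). It passed in 7 of 14 alternative analyses. Slc40a1, the iron exporter ferroportin, was the highest of the others, at 0.99 (adjusted p = 0.898), Fth1, a ferritin chain, was at 0.06, Slc11a2, an iron transporter, at 0.19 and the haem oxygenase Hmox1 at 0.45, with opposite signs in the lines (-0.38 and 1.28).

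**Figure D2:**
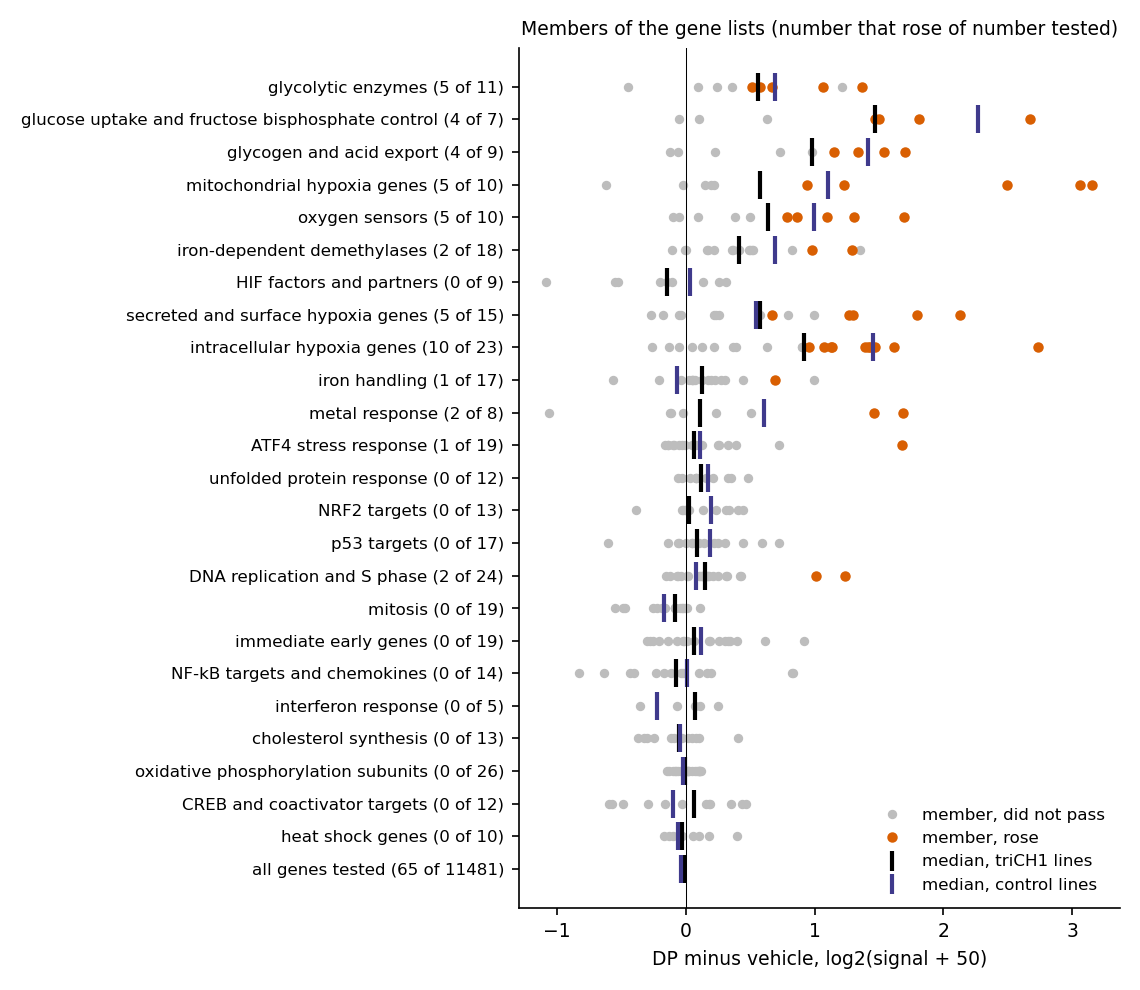
DP change in the triCH1 lines (horizontal axis, log2) of the tested members of 24 gene lists, with the number that rose of the number tested. Orange points rose and grey points did not pass, black bars are list medians in the triCH1 lines and blue bars in the control lines. Rises lie in the hypoxia, demethylase, iron, metal, ATF4 and S phase lists. In the iron (1 of 17), metal (2 of 8), ATF4 (1 of 19) and S phase (2 of 24) lists they are few. The triCH1 medians of these 4 lists (0.12, 0.11, 0.06 and 0.15) lie near 0, as do those of the lists without rises.

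In the other lists few genes passed. Vldlr, the receptor of very low density lipoprotein, was the only 1 of 19 genes of the ATF4 list to rise, from 703 and 1088 to 2868 and 2953 (3.20-fold, adjusted p = 0.000199), while Nupr1 (0.25), Sesn2 (0.72), Ddit3 (0.26) and Trib3 (0.39), the next by p, did not pass. Of 24 genes of DNA replication, Ccne2, a cyclin of S phase entry, rose 2.36-fold and Cdc6, which licenses origins, 2.02-fold (adjusted p = 0.029 and 0.0252). The median of that list was 0.15, and Mcm4 (0.42), Slbp (0.32), Rrm2 (0.21) and Gins2 (0.31) were next by p without passing. Of 19 mitosis genes 0 passed and 10 were below 0 in both lines, a direction that 24.1% of all genes tested had, and the smallest p-values were those of Aurka (-0.47, adjusted p = 0.55) and Plk1 (-0.55, adjusted p = 0.59), kinases of the mitotic spindle. None of the members tested passed in the lists of the unfolded protein response (12), NRF2 (13), p53 (17), immediate early genes (19), NF-kB (14), interferon (5), cholesterol synthesis (13), CREB (12) and heat shock (10), whose medians lay between -0.08 and 0.12. Among them, Cdkn1a, the cell cycle inhibitor p21, came nearest, at 1.51-fold (adjusted p = 0.0635).

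The 19 genes that rose and belong to no list had changes of 1.56 to 4.48-fold, and 11 were at least 2-fold. Rgcc, a regulator of the cell cycle, and Smtnl2 were the largest, and both were weak with vehicle. Rgcc was at 4.6 and 42.4 with vehicle and 186 and 379 with DP (4.48-fold, adjusted p = 0.00694), and a further Rgcc probe set gave -0.19. Smtnl2 was at 21.1 and 28.7 with vehicle and 166 and 395 with DP (4.15-fold, adjusted p = 0.016), and a further probe set gave 0.57 (unadjusted p = 0.308). With the mean of the probe sets neither gene passed (limma adjusted p = 0.397 for Rgcc and 0.391 for Smtnl2). Among the 4 arrays each gene reached a signal of 200 only on the DP array of triCH1flox2. Neither gene was tested with a filter of 200 on 8 arrays. Pdxp, a phosphatase of vitamin B6, rose 3.06-fold, Tbl2 2.95-fold, the chloride transporter Clcn3 2.90-fold from 661 and 457 to 2027 and 1407 (adjusted p = 0.000109), Ccng2, a cyclin linked to cell cycle arrest, 2.75-fold and Gdap10 2.63-fold. Rhobtb1, Dipk2a, Plekha2, Bmt2, Rsbn1, Homer1, Rnf19a, Nrn1, Ppme1, Pgp, Arhgap29 and Map2k1, which encodes a kinase of the ERK pathway, rose 1.56 to 2.46-fold. Bmt2 did not pass without the line as a block (limma adjusted p = 0.0754) or with the mean of the probe sets (0.0797).

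The only fall past the threshold was that of Brms1, a subunit of a histone deacetylase complex, from 273 and 299 to 58.3 and 93.7 (fell by 1.43 on the log2 scale, SE 0.306, adjusted p = 0.0433). In the control lines it was at 0.06. The groups did not overlap, as for 14.7% of all genes tested, but the DP signals were near the lower limit of the arrays. A further Brms1 probe set gave -0.60 (unadjusted p = 0.0647), and the fall passed in 3 of 14 alternative analyses, not among them the fit without the line as a block. The lowest p-values among genes that did not pass were those of Ttyh3 (-0.90, adjusted p = 0.0583), Hdhd3 (-0.93, 0.252), Plekhm3 (-0.84), Mkrn1 (-0.64), Crb3 (-1.32), H2ax (-0.46), Slc20a1 (-0.40), Ibsp (-1.90), Rps4l (-0.64) and Ankrd13d (-0.98). At an unadjusted p under 0.05, 330 genes were higher and 233 lower with DP. At least a 2-fold change in both lines was seen for 63 genes upward and 26 downward.

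The changes were then compared by line. Of the 65 genes, 42 had changes within 0.5 of each other on the log2 scale, as had 63.2% of all genes tested. The 65 were chosen by a test that favours genes with like changes in both lines. Among them, 4 differed by 1 or more (Stc1, Pfkfb3, Slc16a3 and Gys1, all larger in triCH1flox2), and 35 were at least 2-fold in both lines. The median rise was 1.10 in triCH1flox1 and 1.27 in triCH1flox2, and 44 genes rose more in triCH1flox2. The array series differed between the DP and vehicle arrays of triCH1flox1 alone, and its part in this was not tested. Of the 65 genes, 37 had further probe sets that passed the signal filter. Of these 59 further probe sets 57 were above 0 and 34 at least 2-fold, the exceptions being those of Pfkfb3 and Rgcc.

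**Figure D3:**
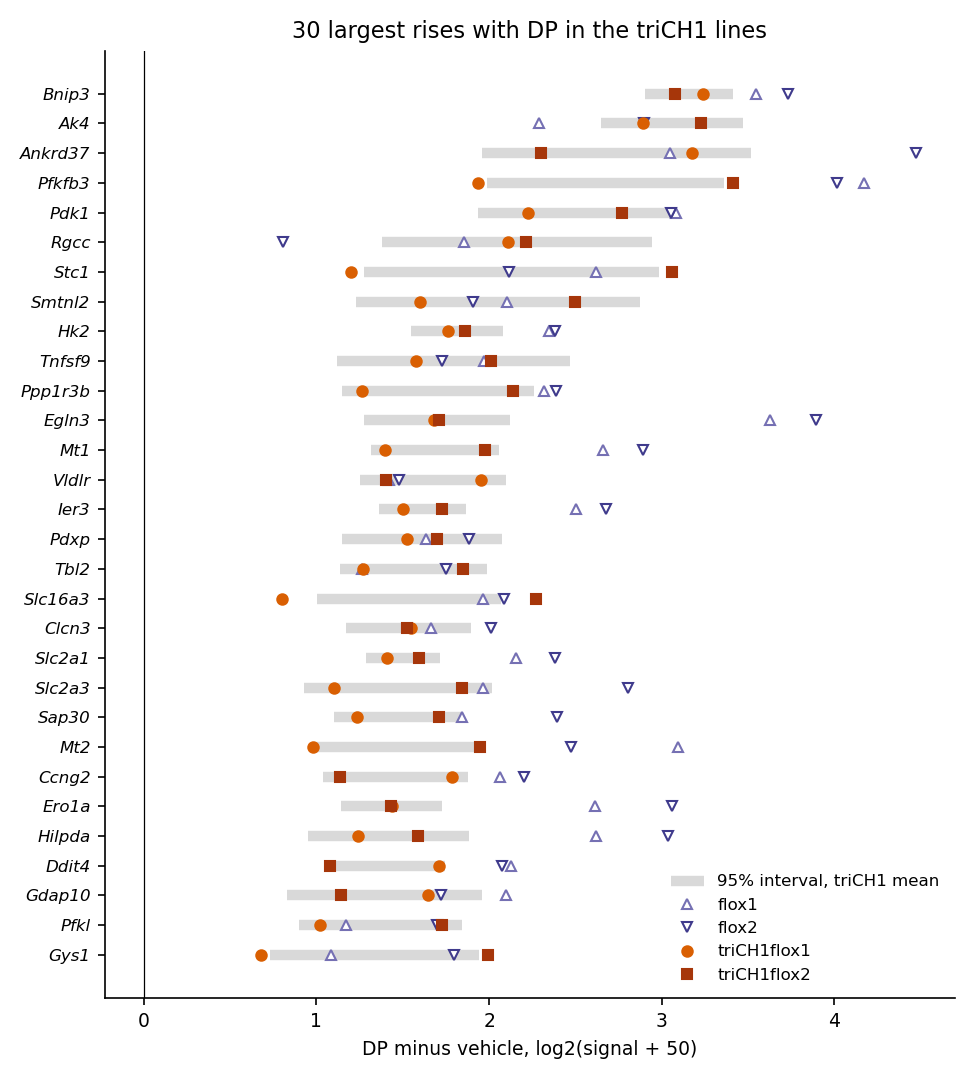
DP change (horizontal axis, log2) of the 30 genes with the largest rise in the triCH1 lines, by line. Filled orange circles and brown squares are triCH1flox1 and triCH1flox2, open triangles the control lines flox1 and flox2, and grey bars the 95% interval of the triCH1 mean. Both control lines lie to the right of the bar for Egln3, Ero1a, Mt1, Ier3 and Slc2a1, among others, and no control line does for Rgcc and Ak4.

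The DP response without CH1 was then set beside that of the control lines, whose 4 arrays are separate from those above. In the control lines 140 genes rose (1.22%) and 38 fell (0.331%). Of the 65 genes that rose in the triCH1 lines 62 also rose in the control lines, which is 95.4% of the former and 44.3% of the latter. The others were Rgcc (1.33 in the control lines, adjusted p = 0.0951), Rhobtb1 (0.94, adjusted p = 0.127) and Jmjd6 (0.77, adjusted p = 0.0891), which were higher in both control lines without passing. Over the 140 genes the median change was 1.33 for the control lines against 0.74 for the triCH1 lines. Of the 140, 123 (87.9%) were above 0 in both triCH1 lines, against 20.8% of all genes tested. The 140 were chosen on the control arrays, which favours large control values, so the gap between these medians does not measure a loss of response. Over the 65 genes, chosen on the triCH1 arrays, the medians were 1.59 for control and 1.30 for triCH1 lines. The flox1 vehicle array, with its high 3′ to 5′ ratio, weighs on the counts of the control lines: without it 86 genes rose and 4 fell there. Leaving out flox1 altogether gave 55 rises and 6 falls, leaving out flox2 gave 65 falls, and without the line as a block 3 genes fell. Of the 38 genes that fell in the control lines 22 (57.9%) were below 0 in both triCH1 lines, against 24.1% of all genes. Their medians were -0.83 for control and -0.22 for triCH1 lines. The 38 too were chosen on the control arrays, which favours large falls there.

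The difference between the classes was tested gene by gene. It passed for 3 genes, all with smaller rises in the triCH1 lines (0.0261% of genes), and for 0 genes in the other direction (limma adjusted p, with 559 genes at an unadjusted p under 0.05). Egln3 rose 3.24-fold in the triCH1 lines and 13.5-fold in the control lines, where it went from 259 and 239 to 3757 and 4244. The difference was -2.06 on the log2 scale (SE 0.282, adjusted p = 0.0104). Ero1a rose 2.70-fold against 7.15-fold (-1.40, SE 0.195, adjusted p = 0.0104), and its control signals went from 1152 and 1011 to 7319 and 8794. Ndrg1, a gene of differentiation and stress, rose 2.11-fold against 6.24-fold (-1.56, SE 0.253, adjusted p = 0.0458), with control signals of 502 and 469 going to 3282 and 3295. Without the flox1 vehicle array the adjusted p was 0.0189 for Egln3 and Ero1a and 0.124 for Ndrg1, and with the array series as a term none of the 3 passed (0.0663, 0.0663 and 0.219). None passed either when any of the 4 lines was left out.

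For the other 62 genes that rose in the triCH1 lines the difference between the classes did not pass, which does not show that the rises were equal. Over all 65 the median difference was -0.39, 51 were smaller in the triCH1 lines and 14 larger, and the 95% interval lay wholly below 0 for 24, against 2.3% of all genes tested, and wholly above 0 for 0. These genes were chosen on the triCH1 arrays, which favours large triCH1 values. Among the larger class differences, besides the 3 above, were those of Bhlhe40 (-1.52, interval -2.19 to -0.86), Pfkfb3 (-1.42, -2.39 to -0.45), Hilpda (-1.41, -2.07 to -0.75), Mt2 (-1.32, -1.99 to -0.65), Kdm3a (-1.15, -1.81 to -0.49), Mt1 (-1.09, -1.61 to -0.57) and Stc2 (-1.06, -1.84 to -0.29). Ier3 (-0.98, adjusted p = 0.0706) and Slc2a1 (-0.77, adjusted p = 0.1) had narrower intervals, -1.33 to -0.62 and -1.07 to -0.46. Further probe sets turned the direction for Mt1, where the difference was 0.93, and for 1 of 2 of Stc2, where it was 0.22.

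The smallest class differences were measured for other genes. Arhgap29 differed by 0.00 (interval -0.38 to 0.39), Rsbn1 by 0.02 (-0.60 to 0.64), Ldha by 0.03 (-0.35 to 0.41), Smtnl2 by 0.04 (-1.12 to 1.21), Ppme1 by -0.05 (-0.51 to 0.42), Tbl2 by 0.05 (-0.55 to 0.66), Pfkl by -0.06 (-0.73 to 0.61), Ccne2 by 0.06 (-0.70 to 0.82), Tnfsf9 by -0.06 (-1.01 to 0.90) and Cdc6 by 0.07 (-0.54 to 0.68). Further probe sets were less alike, with differences of -1.43 for Smtnl2, 0.69 and -0.56 for Tbl2, 0.70 and -0.29 for Pfkl and -0.32 for Rsbn1. Larger rises without CH1 were measured for Rgcc (0.83, -0.27 to 1.94), Ak4 (0.47, -0.12 to 1.05), Rhobtb1 (0.36) and Vldlr (0.23), with intervals that all held 0. A further Rgcc probe set turned the direction (-1.23), and those of Vldlr ran from -0.38 to 0.72. Bnip3 rose 12.5-fold in the control lines, and its difference of -0.48 (-0.84 to -0.12) is small beside its rise. For 13 of the 65 genes the interval left out a loss of 50% or more of the control change on the log2 scale. The choice of the 65 on the triCH1 arrays favours this count. Its bound takes the measured control change as exact, and the share over all genes was not computed. The count therefore does not show that these rises are independent of CH1. By group, 36 of the 38 hypoxia list genes that rose had smaller rises in the triCH1 lines (median difference -0.50). Among the 19 genes in no list 8 had larger rises and the median was -0.15, against 0.02 over all genes tested. The groups were not tested against each other, and both were chosen on the triCH1 arrays. The median control change was 1.37 for the 19 genes and 1.59 for all 65. The classes also differed in sex: Xist, expressed from the inactive X chromosome, had vehicle signals of 2999 and 3525 in the triCH1 lines and 84.9 and 24.6 in the control lines. CH1 and sex cannot be told apart in any comparison of the classes.

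**Figure D4:**
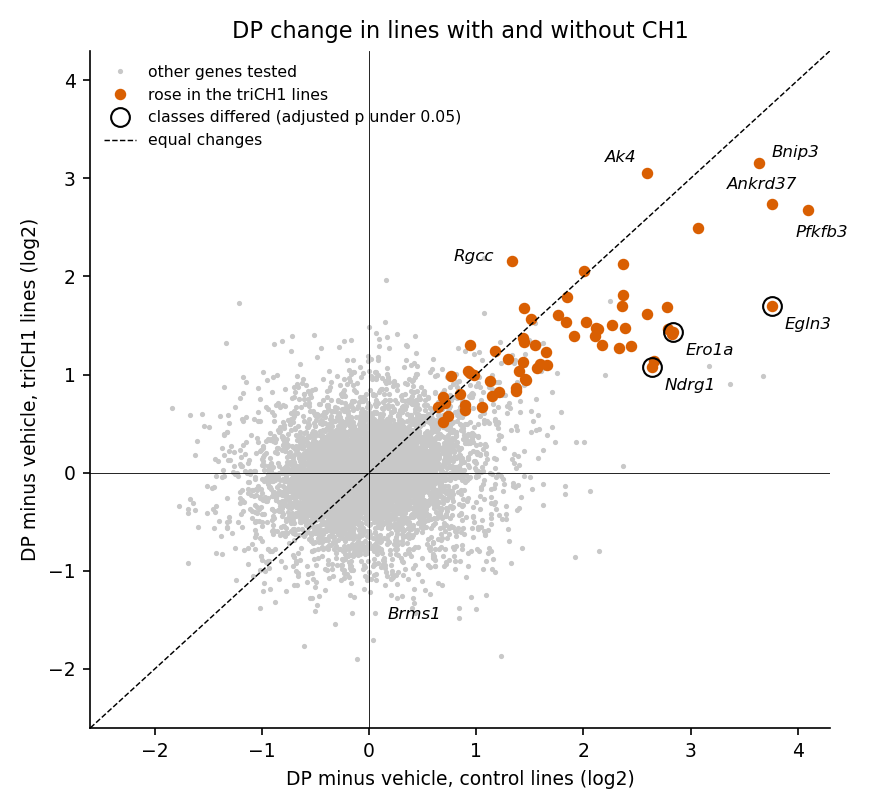
DP change of the control lines (horizontal axis) against that of the triCH1 lines (vertical axis), log2, for 11481 genes. Orange points are the 65 genes that rose in the triCH1 lines, black circles the 3 genes with a class difference past the threshold, and the dashed line marks equal changes. Of the 65 genes, 51 lie below the dashed line and 14 above it.

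Genes with at least a 2-fold change in the control lines that did not pass in the triCH1 lines numbered 45 upward and 12 downward. Those nearest to no change in the triCH1 lines were Lrrc75a, Phactr4, Zfp280c, Adm2, Selenbp1, Snai2, B4galt4, Fndc3a, Axl and Taf1c. B4galt4, a galactosyltransferase, rose 4.17-fold in the control lines (adjusted p = 0.00374) and at -0.18 in the triCH1 lines, where it went from 157 and 283 to 158 and 206. The interval of its difference was -3.31 to -1.18. Snai2, a repressor of the epithelial program, fell by 1.01 in the control lines (adjusted p = 0.00143) and was at -0.17 in the triCH1 lines (difference 0.85, 0.37 to 1.32). None of the 10 differences passed over all genes (adjusted p of 0.286 to 0.979). Among hypoxia genes, Ppp1r3c (12.8-fold in the control lines), Kbtbd11 (10.3-fold), Zfp395 (8.99-fold) and Nampt (4.60-fold) rose in the control lines and were 1.87 to 2.12-fold higher without passing in the triCH1 lines.

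In the presence of TSA fewer genes passed in the same lines. On 4 other arrays 7 genes rose (0.061%) and 0 fell (limma adjusted p, with 665 genes at an unadjusted p under 0.05), and all 7 were among the 65. Mt1 went from 7142 and 4301 with TSA to 18039 and 19677 with TSA and DP (3.38-fold, adjusted p = 0.000122), and Mt2 rose 2.91-fold (adjusted p = 0.00695). Bnip3 went from 2555 and 2337 to 6216 and 6165 (2.50-fold, adjusted p = 5.94e-05). Bhlhe40 rose 2.47-fold, Ero1a 2.14-fold, Hk2 1.88-fold and Ier3 1.65-fold. Of the 65 genes 49 (75.4%) were above 0 in both lines under TSA, against 27.1% of all genes tested, with a median of 0.34. Without triCH1flox1 3 genes rose under TSA, without triCH1flox2 1 gene, and without the line as a block 4 genes.

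The DP change was smaller with TSA than without for 62 of the 65 genes, with a median difference of -0.93, and larger for Bhlhe40, Mt1 and Mt2. Since the 65 were chosen on the arrays without TSA, this count favours smaller values under TSA. Over all genes the difference passed for 5 genes, all negative (0.0436%), and for 0 in the other direction (424 at an unadjusted p under 0.05). These were Ak4 (-2.76, SE 0.276, adjusted p = 0.000123), Bnip3 (-1.83, SE 0.170, adjusted p = 7.99e-05), Pdxp (-1.91, adjusted p = 0.0281), Slc2a1 (-1.10, adjusted p = 0.00321) and Ces5a, a carboxylesterase (-2.02, adjusted p = 0.0167). The signals before DP were not the same with and without TSA for some of them, a difference that was not tested, and in triCH1flox1 these arrays are of different series. Pdxp was at 667 and 726 with TSA against 217 and 219 with vehicle, Bnip3 at 2555 and 2337 against 1036 and 1093, and Slc2a1 at 8332 and 7108 against 5239 and 4343. Ak4 reached 740 and 734 with TSA and DP against 3667 and 3651 with DP alone. For Mt1 the difference was 0.07 (SE 0.248), and its signals were higher with TSA both before and after DP. Both TSA arrays of triCH1flox1 belong to the other array series and both of triCH1flox2 do not. With the series as a term the difference passed for Ak4, Bnip3 and Slc2a1. It passed for 2 genes without the line as a block, 0 genes without triCH1flox1 and 1 gene without triCH1flox2.

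**Figure D5:**
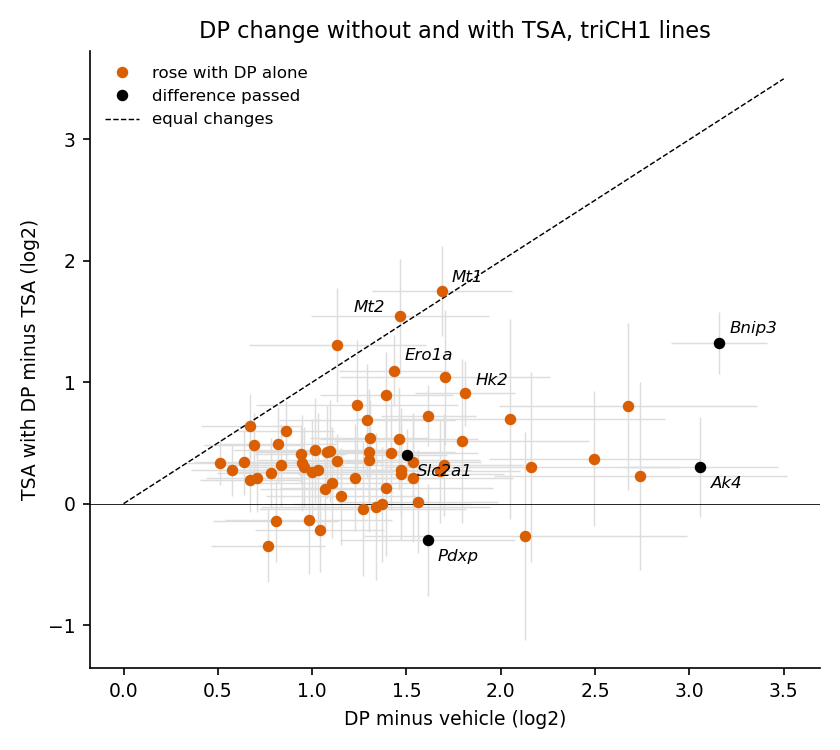
DP change in the triCH1 lines without TSA (horizontal axis) and with TSA (vertical axis), log2, for the 65 genes that rose without it, with 95% intervals in grey. Black points are genes whose difference passed and the dashed line marks equal changes. Of the 65 points 62 lie below the dashed line, with Bhlhe40, Mt1 and Mt2 above it.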

How the data were processed

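RNA of 4 fibroblast lines under 4 treatments was measured on 16 Affymetrix mouse arrays. The deposited intensity of a probe set comes, per the labels, from Affymetrix's statistical algorithm with scaling, so that the 2% trimmed mean of an array is 500, which the deposited values met. The software version is not given in the sources used here. Of 45101 probe sets, 34945 had 1 gene symbol in the platform table; those with several (932) or none (9160) and 64 control probe sets were left out. A probe set was tested at a signal of at least 200 on at least 2 arrays, and each gene is represented by its brightest probe set on average among those tested. The comparisons were fitted on log2(signal + 50) with limma 3.58.1 (R 4.3.3) over all 16 arrays: 8 means of class and treatment, the line as a block, and variances trended on signal (residual degrees of freedom 6, prior 10.4). P-values were adjusted by Benjamini-Hochberg over 11481 genes. The block rests on the same line having received all treatments. Deviations of a line from the group means correlated between treatments (0.077 to 0.32 for triCH1 lines, 0.16 to 0.328 for control lines). Promoters came from RefSeq (GRCm38.p6), the first listed start of each gene.

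The genes, the 24 gene lists and 9 marker lists, and the tests were chosen with earlier results of these data known. Named were all genes past the threshold, up to 10 genes with the smallest p among those lower with DP, the 10 smallest and 10 largest class differences among the genes that rose, the 10 genes changed at least 2-fold in the control lines alone with triCH1 changes nearest to 0, and list members (all of the hypoxia, demethylase, iron, metal and HIF lists, and of the others those passing and up to 4 more by p). That rule allowed signals by array for the 30 largest rises. Signals are given for some of these and for other genes, in both cases by choice after the values were seen. Alternatives covered the pseudocount, the signal filter, quantile normalization, the block, the variance trend, the choice of probe sets, the arrays fitted, the array series and each line left out. Figures were drawn with matplotlib 3.10.9.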

Additional observations from a re-analysis of the deposited data

Results flagged for a closer look

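The DP change differed between the triCH1 and the control lines for Egln3 (-2.06 on the log2 scale), Ero1a (-1.40) and Ndrg1 (-1.56), by limma's test of the difference over all genes. All 5 probe sets of Ndrg1 and all 3 of Ero1a had smaller changes in the triCH1 lines, and the values of the further probe sets were -1.24 to -2.46 for Ndrg1 and -0.46 and -1.50 for Ero1a. A further Egln3 probe set gave -1.49.

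The DP change in the triCH1 lines differed with and without TSA for Bnip3 (-1.83), Ak4 (-2.76), Slc2a1 (-1.10), Ces5a (-2.02) and Pdxp (-1.91). Ces5a did not pass in either condition alone. Its signals went from 657 and 442 to 1079 and 1025 with DP and from 866 and 731 to 332 and 348 with DP under TSA.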

How the results depend on the processing

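The count of 65 rises in the triCH1 lines stayed between 55 and 68 with a pseudocount of 16 or 200, no filter, a filter on 8 arrays, quantile normalization, the mean of probe sets or the 4 arrays alone. It was 78 without the vehicle array of flox1, all 65 among them, 44 with the series term, 27 with no variance trend, 43 with only the vehicle and DP arrays, and 17 to 35 with a line left out. With no replicate block it was 46, all among the 65. With the mean of probe sets 53 of the 65 passed. With the filter on 8 arrays 62 of the 65 were tested, and Rgcc, Smtnl2 and Tnfsf9 were not. All 65 stayed above 0 wherever they were tested, and 12 passed in every alternative: Ak4, Bnip3, Clcn3, Egln3, Ero1a, Fam162a, Hk2, Ier3, Mt1, Pdk1, Slc2a1 and Vldlr. With no replicate block, no variance trend or fewer arrays but both lines, the change of a gene is the same by construction. With a line left out it is the change of the other line, which was above 0 for all 65. The sign could therefore not turn in those fits. The count of 1 fall became 0 with a pseudocount of 200, no filter, quantile normalization, no replicate block, no variance trend, the mean of probe sets, the 8 vehicle and DP arrays or the series term, and 2 with the filter on 8 arrays. With the 4 arrays alone 1 gene fell, but it was not Brms1, which did not pass there (limma adjusted p = 0.206). In the control lines rises numbered 85 with no variance trend, 86 without the vehicle array of flox1 and 55 to 181 with a line left out. Falls there numbered 15 with no filter, 3 with no replicate block, 9 with no variance trend, 21 with the mean of probe sets, 4 without the flox1 vehicle array and 6 to 65 with a line left out. The 3 class differences became 0 with no variance trend, with the vehicle and DP arrays alone, with the series term and with any line left out (0 to 0). Under TSA the 7 rises became 4 with no replicate block and 1 to 3 with a line left out. The 5 differences with TSA became 2 with no replicate block, 3 with the series term and 0 to 1 with a line left out. The cause of these moves was not tested, beyond fewer arrays or degrees of freedom in the smaller fits. A fit with a line left out has 1 sample in a group and assumes that it varies like the others. Signals under 200 have no stated detection limit here, so changes of weak genes such as Brms1, Rgcc and Smtnl2 are the least certain.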

Other observations

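Several hypoxia genes had different starting signals in the classes. Zfp395 was at 130 and 263 with vehicle in the triCH1 lines and at 36.0 and 65.9 in the control lines, and its DP signals were 407 and 505 against 787 and 912. Kbtbd11 was at 121 and 140 against 59.7 and 17.7 with vehicle, and at 299 and 276 against 795 and 881 with DP. Nampt was at 663 and 715 against 142 and 524 with vehicle, and at 1562 and 1290 against 1403 and 1553 with DP. For Nampt the DP signals of the classes overlapped although the fold differed (1.99-fold against 4.60-fold). These genes were chosen after their values were seen, and the vehicle levels of the classes were not tested.

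Promoters of the 78 genes that rose in the control lines and did not pass in the triCH1 lines were matched for 59, and 66.1% of these held a match to the HIF core, against 74.1% of the matched genes that rose in the triCH1 lines. The shares for ACGTG alone were 37.3% and 40.7%.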
